A study of Mus musculus with 2 samples.

Results

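Il7r, Ighm, Cd79b, Gimap1, Gimap6 and Lag3 are 6 genes best known from lymphocytes that were carried by cells of a wild-type (WT) microglia library and were low or absent in the library labelled IRF8KO. They were taken by symbol from the feature table, 6 of 31053 features, and had been chosen by their ratio of UMIs between the 2 libraries. The levels and ratios between the libraries below are therefore a description of the choice. How the transcripts lay among the WT cells was no part of the choice.

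Microglia are the resident macrophages of the brain. IRF8 is a transcription factor of the myeloid lineage that binds DNA together with PU.1, and Sall1 and P2ry12 are genes by which microglia are told from other macrophages. The 6 genes have well known roles in lymphocytes: Il7r encodes the alpha chain of the interleukin-7 receptor, Ighm the constant region of the immunoglobulin mu heavy chain and Cd79b the Ig-beta signalling chain of the B cell receptor. Gimap1 and Gimap6 encode GTPases of a family that maintains lymphocytes, and Lag3 encodes an inhibitory receptor of T cells that binds MHC class II.

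Both libraries came from C57BL/6 females aged 3 months, with no treatment, and each was made from sorted microglia of 3 pooled mice, isolated without enzymes and run on the 10x Genomics droplet platform. There was 1 library per group, so no difference between them has a replicate check and none was tested. Groups follow the sample titles. The sample whose title says IRF8KO is listed with a WT genotype, so it is called the library labelled IRF8KO, and its cells IRF8KO-labelled cells. Neither the allele nor the sort gate is given in the sources used here. A kit for full-length RNA is named beside the droplet platform in the protocol, but the files hold droplet counts.

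The cells used held 1000 UMIs or more (molecular tags, each counting 1 captured transcript) and 500 genes or more, with no more than 10% of UMIs mitochondrial. This left 3304 WT cells with 18543061 UMIs and a median of 3204.5 UMIs per cell. In the library labelled IRF8KO, 98 cells with at least 2% of their UMIs in 6 neutrophil genes (Camp, Ngp, S100a8, S100a9, Lcn2 and Ltf) were set apart, which left 5007 cells with 18980263 UMIs and a median of 2933. The threshold fell in a wide gap, since the highest cell kept had 0.232% and the lowest cell set apart 2.36%. Between the libraries 5 barcodes were shared, and the WT cells with these barcodes held 1 UMI of Il7r, 3 of Ighm and 1 of Cd79b. Irf8 itself had 14725 WT UMIs and 12698 in IRF8KO-labelled cells (log2 ratio -0.25, against a median of -0.28 over all 8859 genes tested), so its count does not check the label. Markers of microglia were present in WT cells, where P2ry12 had a UMI in 99.5% and Sall1 in 76.2%. Among IRF8KO-labelled cells P2ry12 had one in 77.7% and Sall1 in 0.619%, while the 9 border macrophage markers summed to 54131 UMIs against 261 in WT cells. These cells are therefore described by their label and not as microglia. The monocyte, dendritic cell and endothelial lists summed to 139, 80 and 991 UMIs in WT cells and to 446, 203 and 434 in IRF8KO-labelled cells. Pecam1 alone made up 965 of the 991 endothelial UMIs in WT cells. In IRF8KO-labelled cells Flt1 made up 365 of the 434, and Cldn5 had 0 UMIs in both.

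Levels are given in CPM, the UMIs of a gene summed over the cells, divided by all UMIs of those cells and brought to a common total. All intervals are exact 95% intervals and cover counting error only, since cells of 1 pool are not replicates. UMI counts of different genes are not set against each other as levels, because capture differs between transcripts.

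Il7r (chr15:9505788-9530176, minus strand, GRCm38) had 1423 UMIs in WT cells, or 76.7 CPM (72.8 to 80.8), and 2 UMIs in IRF8KO-labelled cells. The log2 ratio of IRF8KO over WT was -9.51 (-12.56 to -7.65). Gimap1 (chr6:48739054-48743795, plus strand) had 962 WT UMIs, 51.9 CPM (48.7 to 55.3), and 0 in IRF8KO-labelled cells, which puts it at least 328-fold lower at a floor of 3 UMIs over the group. Gimap6, a neighbour of Gimap1 (chr6:48701582-48708225, minus strand), had 720 WT UMIs, 38.8 CPM (36.0 to 41.7), and 3 in IRF8KO-labelled cells. Its log2 ratio was -7.94 (-10.22 to -6.39). These 3 genes were thus near or at 0 in IRF8KO-labelled cells. The Gimap1 locus overlaps the annotated gene Gm28053, which held 0 UMIs, and the antisense transcript Gimap1os.

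The other 3 members kept UMIs in both libraries. Ighm (chr12:113418558-113422730, minus strand) had 4897 UMIs in WT cells, 264 CPM (257 to 272), and 416 in IRF8KO-labelled cells, 21.9 CPM (19.9 to 24.1), which is 12.05-fold lower. Cd79b (chr11:106311341-106314762, minus strand) had 909 and 80 UMIs, 49.0 CPM (45.9 to 52.3) and 4.21 CPM (3.34 to 5.25), which is 11.6-fold lower. Lag3 (chr6:124904361-124911705, minus strand) had 3146 and 377 UMIs, 170 CPM (164 to 176) and 19.9 CPM (17.9 to 21.97), which is 8.54-fold lower. The interval of each gene in WT lay above its interval in the library labelled IRF8KO.

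All 6 members were at least 4-fold lower in the library labelled IRF8KO, the direction for which they were chosen. Of the 8859 genes that reached 10 CPM in either library, 256 (2.89%) were lower by that much, and 74.9% were lower at all. Under TMM scaling, which shifts every log2 ratio up by 0.25, 52.6% were lower at all and 2.40% at least 4-fold. The median log2 ratio of the 6 members, with Gimap1 at its bound, was -5.77, against -0.28 over all genes tested.

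**Figure D1:**
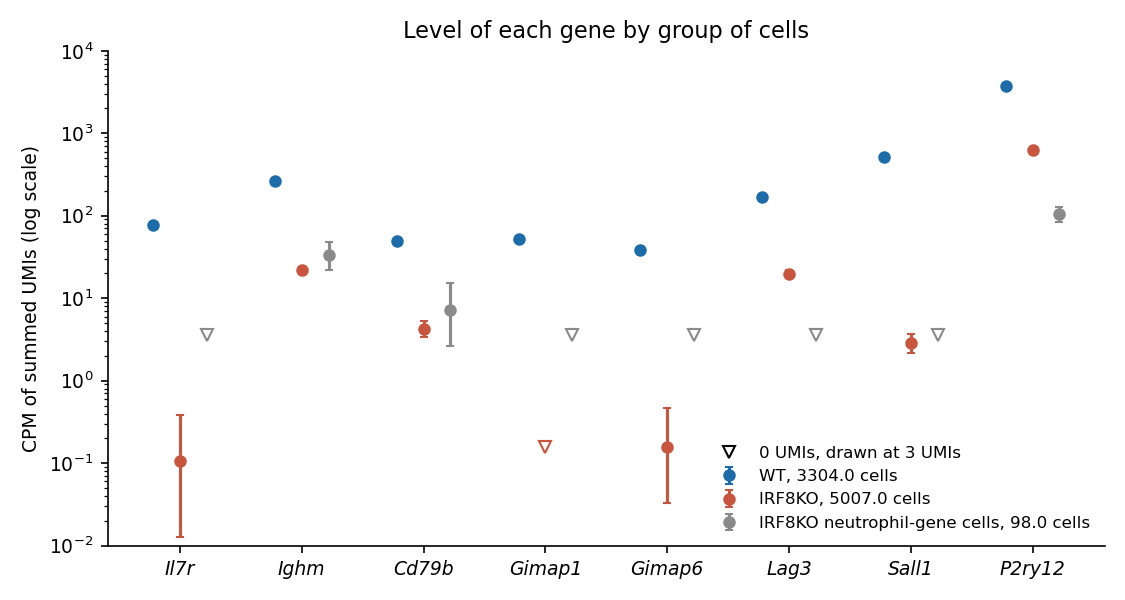
Level of the 6 members, Sall1 and P2ry12 in CPM on a log axis, with exact 95% Poisson bars (counting error only), for 3304 WT cells, 5007 IRF8KO-labelled cells and the 98 neutrophil-gene cells set apart. Open triangles mark 0 UMIs and are drawn at the floor of 3 UMIs; all 6 members are highest in WT, and the grey points of Ighm and Cd79b lie level with or above the IRF8KO points.

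Droplets also capture free RNA released by other cells, so the members were read in the 98 neutrophil-gene cells of the library labelled IRF8KO as well. These cells had a median of 7057.5 UMIs. Ighm stood at 33.2 CPM (22.1 to 48.0) in them, with a UMI in 20 of 98 cells, and Cd79b at 7.12 CPM (2.61 to 15.5). The levels of Ighm and Cd79b in the other IRF8KO-labelled cells were thus no higher than in these cells, and no expression of the 2 genes is read from them. Lag3 had 0 UMIs in the neutrophil-gene cells, where 3 UMIs would be 3.56 CPM, and its 19.9 CPM in the other IRF8KO-labelled cells was above that limit. Ighm UMIs per Cd79b UMI were 5.39 in WT cells (5.02 to 5.79), 5.2 in IRF8KO-labelled cells (4.08 to 6.69) and 4.67 in the neutrophil-gene cells (1.90 to 13.8), intervals that overlap. Ighm UMIs per Lag3 UMI were 1.56 in WT cells (1.49 to 1.63) and 1.10 in IRF8KO-labelled cells (0.958 to 1.27). In the neutrophil-gene cells they were 28 to 0, with a lower limit of 7.10, so the intervals of this ratio do not overlap. Of the neutrophil-gene cells, 16 held a UMI of at least 1 of 35 lymphocyte markers and 2 held UMIs of at least 2. Free RNA and the cells' own transcripts were not separated, and their parts in these values were not tested. For the WT library no such cell type was at hand: 5 barcodes with 23660 haemoglobin UMIs held only 1051 other UMIs and 0 UMIs of the members, too few to set a background at these levels.

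The shares of cells with a UMI rose with the depth of the cell for every member in WT. The cells were put in classes that start at 1000, 2000, 3000, 5000 and 10000 UMIs, with 285, 1104, 1057, 520 and 338 WT cells. Il7r was detected in 10.2%, 15.9%, 23.5%, 35.4% and 70.7% of them, from the shallowest class to the deepest. Ighm went from 27.0% to 45.0%, 55.3%, 76.5% and 98.5% over the same classes. Lag3 went from 20.4% to 26.4%, 43.1%, 60.8% and 89.3%. In the deepest class, Ighm was thus found in 333 of 338 cells and Lag3 in 302. The other members climbed in the same way, Cd79b from 9.82% to 62.1%, Gimap1 from 6.67% to 64.8% and Gimap6 from 4.91% to 50.9% between the shallowest and the deepest class.

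The level in CPM moved much less than the shares. From the shallowest class to the deepest, Il7r stood at 77.2, 78.7, 82.2, 79.1 and 72.4 CPM. Gimap6 stood at 32.2, 43.4, 38.6, 42.0 and 36.3 CPM, and Cd79b at 64.3, 51.2, 46.7, 45.7 and 49.9 CPM. Intervals of the shallowest and deepest class overlapped for 5 of the 6 members. The exception was Ighm, with 189 CPM (151 to 232) in the shallowest class and 288 CPM (277 to 301) in the deepest. Lag3 lay at 135 CPM (121 to 149) in the class from 2000 UMIs and at 182 (169 to 196) in the next.

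**Figure D2:**
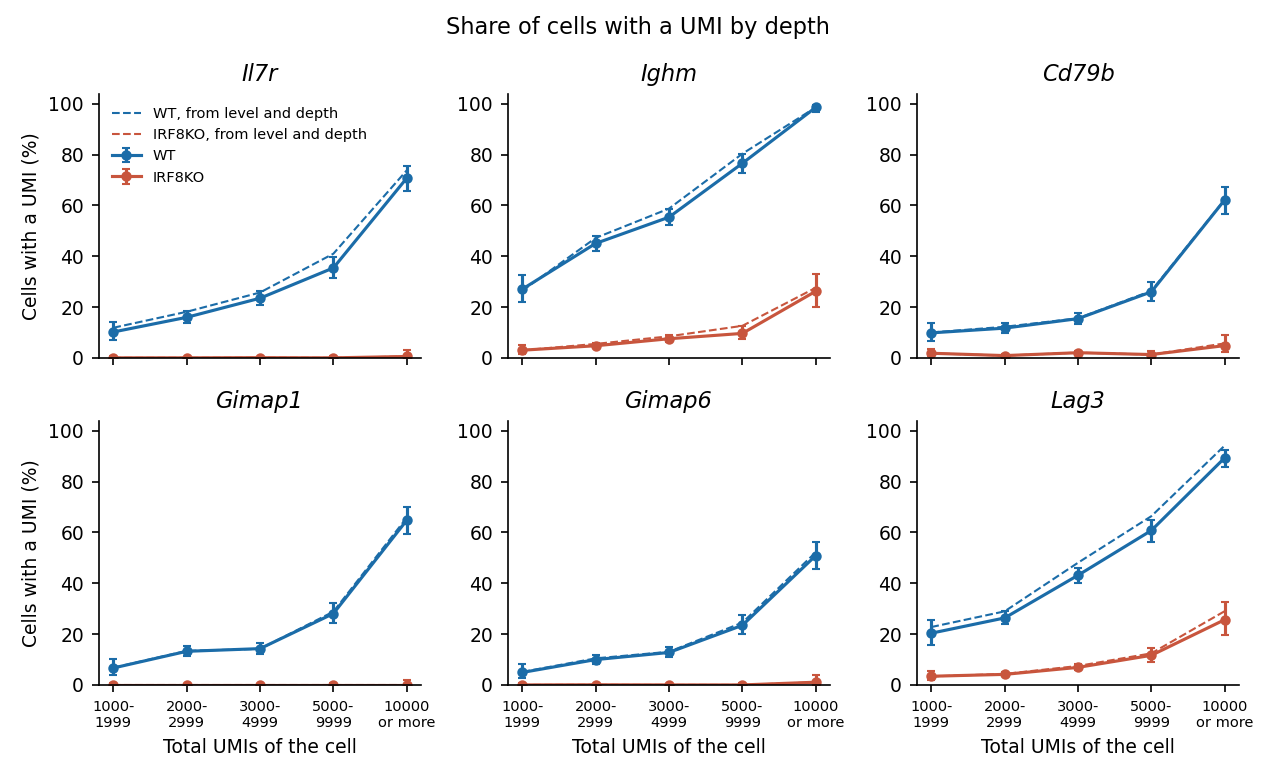
Share of cells with a UMI of each member (%) in 5 classes of total UMIs per cell, with exact 95% binomial bars, in WT and IRF8KO-labelled cells. Dashed lines give the share expected if the level of the class were spread evenly over its cells. In WT the shares climb with depth near those lines, with Il7r and Lag3 below them in each class. In IRF8KO-labelled cells Il7r, Gimap1 and Gimap6 stay at or near 0.

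Among IRF8KO-labelled cells the same classes gave Ighm in 3.01% of cells at the shallow end and 26.2% at the deep end, and Lag3 in 3.41% and 25.7%. Cd79b reached 4.81% in the deepest class. Gimap1 was found in 0 of 5007 cells, where a floor of 3 cells would be 0.0599%; this bounds the share of cells with a UMI, not of cells that express the gene.

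To compare the libraries at 1 depth, each cell was thinned at random to 2000 UMIs, leaving 3019 WT and 4509 IRF8KO-labelled cells after 285 and 498 shallower cells were left out. Il7r then had a UMI in 13.7% of WT cells (12.5 to 14.96) and in 1 IRF8KO cell. Ighm had one in 38.7% (36.9 to 40.4) and 3.93% (3.38 to 4.53), and Lag3 in 25.9% (24.3 to 27.5) and 3.73% (3.19 to 4.32). Cd79b stood at 9.01% and 0.821%, Gimap6 at 7.85% and 0.0222%, and Gimap1 at 9.31% of WT cells with 0 IRF8KO-labelled cells. The unthinned shares in WT were 26.5% for Il7r, 57.2% for Ighm, 20.1% for Cd79b, 20.6% for Gimap1, 16.7% for Gimap6 and 43.1% for Lag3. Unthinned in IRF8KO-labelled cells, Ighm was at 6.81%, Lag3 at 6.59% and Cd79b at 1.54%. Averaged over all possible draws, the thinned share in IRF8KO-labelled cells was 0.0125% for Il7r, 0.806% for Cd79b and 0.0238% for Gimap6. The same average of Ighm was 38.3% in WT cells, 4.06% in IRF8KO-labelled cells and 6.26% in 97 neutrophil-gene cells. For Ighm the order of the 3 groups was thus that of the levels in CPM.

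Most cells with a member held a single UMI of it: 64.0% for Il7r, 77.1% for Cd79b, 75.9% for Gimap1 and 78.1% for Gimap6. For Ighm the share was 49.4% and for Lag3 53.7%, and the highest cells held 29 Ighm and 25 Lag3 UMIs. The 50 WT cells with the most UMIs of a member held between 17.6% (Ighm) and 22.04% (Gimap1) of its UMIs, and the 50 deepest WT cells held 14.5% of all UMIs. No small group of cells thus carried most of the UMIs of a member.

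How evenly a gene lay over the cells was measured as the number of cells with a UMI against the number expected if each depth class had 1 even level. Gimap1 reached 99.1% of that number (92.6 to 106.0), Cd79b 98.7%, Gimap6 96.5% and Ighm 96.2% (93.4 to 99.1). Over 6554 genes with a UMI in at least 10% of WT cells, the median was 98.4% and the middle 95% ran from 93.7% to 101.5%. Il7r, at 90.3% (85.2 to 95.5), and Lag3, at 91.8% (88.2 to 95.5), lay below that middle range, that is, they were found in fewer cells than their level gives. Without the 389 WT cells holding any lymphocyte marker UMI they stood at 89.6% and 91.8%, so the shortfall was as large without those cells. Only 45 WT cells held a marker other than Ighd and Il1rl1, so this step says little about lymphocytes and no conclusion is drawn from it.

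Sall1 was found in the cells with a member about as often as depth alone gives. P2ry12 was too, but only 18 of 3304 WT cells had no P2ry12 UMI. Its counts and ratios below could thus hardly differ from those expected, and no conclusion is drawn from them. Of the cells with an Il7r UMI, 87.1% had a Sall1 UMI, where 84.4% were expected from depth, and 875 of 876 had a P2ry12 UMI. Of the 1890 cells with Ighm, 81.7% had Sall1 (81.2% expected) and 1883 had P2ry12. For Cd79b, Sall1 was in 87.4% (84.7% expected), for Gimap1 in 86.8% (85.2%), for Gimap6 in 85.7% (85.5%) and for Lag3 in 83.3% (82.8%). Every cell with Gimap6, 553 of 553, had a P2ry12 UMI. The observed over the depth-expected number of cells ran from 1.003 to 1.03 with Sall1 and from 0.9999 to 1.003 with P2ry12, and pooled over the members it was 1.014 and 1.001.

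The 788 WT cells without a Sall1 UMI, whose median was 2631.5 UMIs against 3518 in cells with one, carried the members too. Il7r stood at 66.3 CPM (56.0 to 78.0) in them and at 78.1 CPM (73.9 to 82.5) in cells with Sall1. Gimap6 stood at 43.2 and 38.2 CPM, and Lag3 at 154 (138 to 171) and 172 (165 to 178). Intervals overlapped for 5 of the 6 members, and Ighm was lower without Sall1, at 222 CPM (202 to 242) against 270 (262 to 278). Only 18 WT cells had no P2ry12 UMI, and 7 of them had an Ighm UMI. Over all 2750 WT cells with at least 1 member, 2743 had UMIs of at least 8 of the 11 microglia markers, a minimum chosen after the values were seen. For each member the median was 11 markers both in WT cells with it and in those without it. The count therefore does not set cells with a member apart from other WT cells.

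Pairs of members were found together about as often as depth alone gives, or slightly more often. Over their 15 pairs the observed over the depth-expected number of WT cells ran from 0.99 to 1.13. The median was 1.04, and 11 ratios were above 1. The Poisson interval of each pair held 1. It leaves out that the number of cells with each gene is given, so it is too wide, and no conclusion is drawn from its holding 1. For each member, the median of this ratio over 6553 other genes lay between 1.0004 and 1.02. Il7r and Ighm were together in 598 cells, against 604 expected. Gimap1 and Gimap6 had the highest ratio, 213 cells against 189 expected (1.13, 0.98 to 1.29), but on cells thinned to 2000 UMIs the same pair gave 0.91. Ighm, a B cell gene, and Lag3, best known from T cells, were together in 937 cells against 941 expected.

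**Figure D3:**
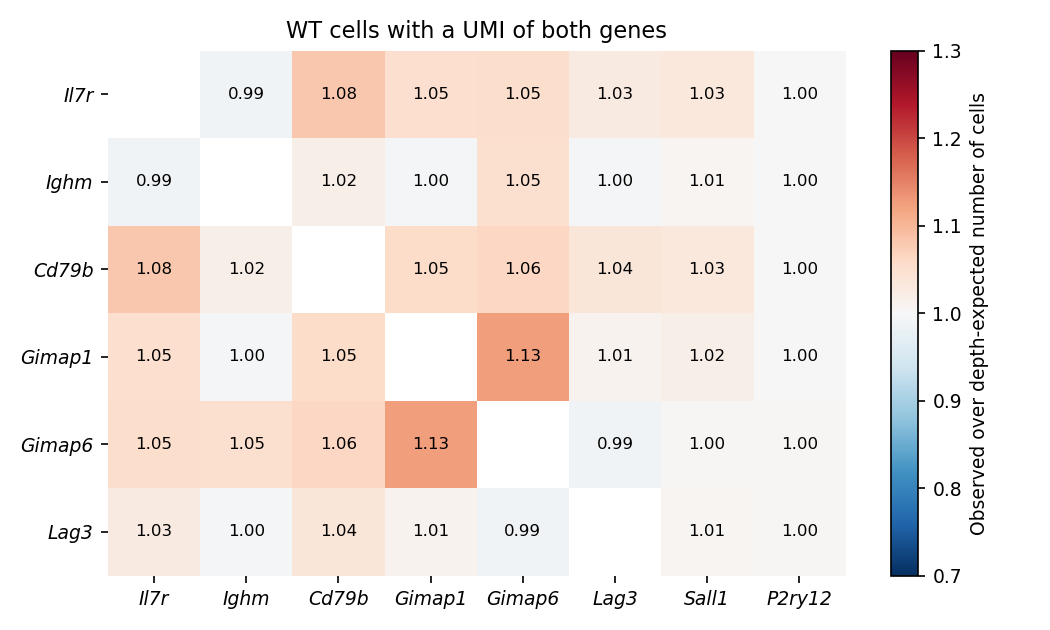
WT cells with a UMI of both genes, as the observed over the depth-expected number, for each pair of members and for each member with Sall1 and P2ry12; red is above 1 and blue below, and same-gene cells are blank. The 15 pairs lie between 0.99 and 1.13, and the columns of Sall1 and P2ry12 between 0.9999 and 1.03. P2ry12 had a UMI in 99.5% of WT cells, so its column could hardly leave 1.

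Counted per cell, 2750 of 3304 WT cells (83.2%, 81.9 to 84.5) had a UMI of at least 1 member, and 878 had at least 3. All 6 members were found in 82 cells, where 64.4 were expected from depth, and 79 of the 82 had 10000 UMIs or more. No member was found in 554 cells, where 526 were expected, so both ends lay above the depth-expected number. In the deepest class, 338 of 338 cells had at least 1 member, and 304 had at least 3. In IRF8KO-labelled cells 694 of 5007 (13.9%) had at least 1 member and none had more than 3.

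**Figure D4:**
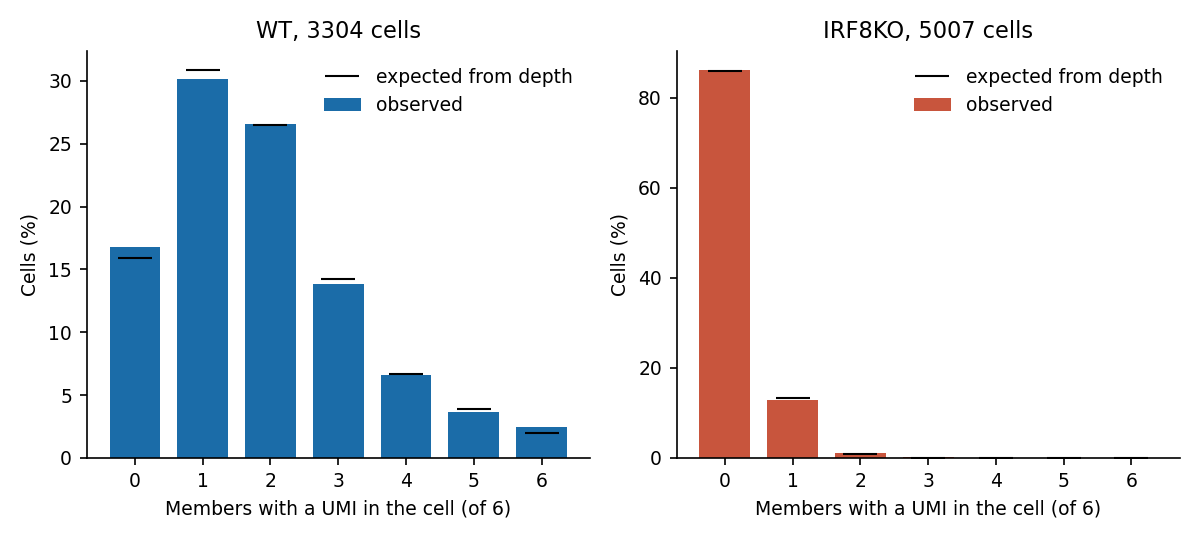
Share of cells (%) by the number of members, 0 to 6, with a UMI in the cell, for WT and IRF8KO-labelled cells; bars are observed and black lines the number expected from depth. WT bars lie near the lines but above them at both ends, with 554 cells at 0 members (526 expected) and 82 at 6 members (64.4 expected). IRF8KO-labelled cells pile up at 0.

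The genes that pair best with a member gave no clear companions. Among genes with a UMI in at least 10% of WT cells, the 3 highest ratios lay between 1.10 and 1.16 for Lag3 and Il7r, 1.08 at most for Ighm, and between 1.16 and 1.25 for Cd79b, Gimap1 and Gimap6. For Il7r they were Glrx (1.16), Ebf3 (1.16) and Hps1 (1.15), for Ighm Ttpal, Chd3 and Smpdl3a, and for Cd79b Ppa2, Klf12 and Clpp. Tmem42, Pigv and Traf7 came next to Gimap1, Pkdcc, Bcl2a1a and Chp1 to Gimap6, and Pde8b, Abhd18 and Rabggtb to Lag3. These are the tops of 6553 ratios in sparse counts, and no finding is drawn from them. Ebf3 had 680 WT UMIs and 5 in IRF8KO-labelled cells, and Pde8b 393 and 10.

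Lymphocytes were looked for directly. Of 35 T, B, NK and innate lymphoid markers, the T cell receptor genes Trac, Trbc1 and Trbc2, the CD3 chains Cd3d, Cd3e and Cd3g, and Cd2, Cd6 and Cd8a had 0 UMIs in the 3304 WT and the 5007 IRF8KO-labelled cells. So did the B cell genes Pax5, Igkc and Iglc2 and the cytotoxic and innate genes Ncr1, Nkg7, Gzma and Gata3. In the 98 neutrophil-gene cells, set apart from these counts, Cd3d had 8 UMIs in 8 cells and Nkg7 12 UMIs in 8 cells. Cd79a, the partner of Cd79b in the B cell receptor, had 0 WT UMIs and 1 in IRF8KO-labelled cells. The T cell list summed to 16 WT UMIs and 65 in IRF8KO-labelled cells, the B cell list to 273 and 41, and the NK and innate lymphoid list to 188 and 187. Ighd, with 250 UMIs, and Il1rl1, with 181, made up most of the WT sums. In WT, 389 cells had a UMI of at least 1 marker, 34 of at least 2 and 1 of at least 3. Without Ighd and Il1rl1, set aside after their values were seen, 45 cells had 1 marker and 0 had 2. The 34 cells with at least 2 markers had UMIs of 11 of the 11 microglia markers in the median, the same median as over WT cells.

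The genes around Ighm and Cd79b were those of a heavy chain without a light chain. Ighd, the delta heavy chain encoded next to Ighm, had 250 WT UMIs and 16 in IRF8KO-labelled cells, 15.99-fold lower. It was found with Ighm in 177 WT cells, against 164 expected (1.08, 0.92 to 1.25). Of the 10 immunoglobulin genes listed, 7 had 0 UMIs in both libraries: Ighg1, Ighg2c, Igha, Igkc, Iglc1, Iglc2 and Iglc3. Jchain had 6 UMIs in each library, and Ighg2b 2 and 1. The signalling genes of the B cell receptor, which myeloid cells also use, were present in both libraries. Of 15 listed, 13 passed 10 CPM, and 13 of 13 were lower in IRF8KO-labelled cells, where 74.9% of all genes tested were, and 0 of them at least 4-fold (2.89% of all genes). Their median log2 ratio was -0.62, against -0.28 over all genes. Under TMM scaling, with 52.6% of all genes lower, or with mitochondrial and ribosomal protein genes left out of the totals, 12 of 13 were lower. Lyn, a Src family kinase, stood at 537 and 344 CPM, the phosphatase Inpp5d at 566 and 422, the inhibitory receptor Fcgr2b at 273 and 141, and the adaptor Blnk at 225 and 133.

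Around Il7r, the pathway genes were mixed. Of 12 listed, 8 passed 10 CPM, 5 were lower and 3 higher in IRF8KO-labelled cells, and their median log2 ratio was -0.64. Of all genes tested 74.9% were lower, with a median of -0.28. Under TMM scaling 52.6% were lower, and the list still had 5 lower and 3 higher. No shift of the pathway is read from these counts. The kinase Jak1 stood at 250.5 CPM in the WT library and at 163 CPM in IRF8KO-labelled cells, and the transcription factor Stat3 at 125 and 78.3 CPM. Crlf2, which pairs with the Il7r product in the receptor for TSLP, had 695 WT UMIs and 1931 in IRF8KO-labelled cells, 37.5 and 101.7 CPM. Bcl2, a survival gene, was likewise higher there, at 44.8 CPM against 20.8 CPM in WT. Il2rg, the common gamma chain that completes the interleukin-7 receptor, had 51 WT UMIs and 533 in IRF8KO-labelled cells; it is named after its values were seen. Il7, the ligand of that receptor, had 0 UMIs in both. Tslp, which encodes TSLP, had 59 WT UMIs and 1 in IRF8KO-labelled cells, below 10 CPM in both, and is also named after its values were seen. Il7r and Il2rg were together in 19 WT cells against 21.6 expected (0.88, 0.53 to 1.37), and Il7r and Crlf2 in 213 against 205 (1.04, 0.90 to 1.19). Both intervals held 1, but they are of the same wide kind as those of the member pairs, and no conclusion is drawn from that.

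Of the other 6 Gimap genes listed, Gimap9 had 424 WT UMIs and Gimap5 had 106, with 0 of either in IRF8KO-labelled cells. Gimap9 was thus at least 145-fold lower at the floor. Gimap3, Gimap4, Gimap7 and Gimap8 had 0 UMIs in both libraries. Of these 8 Gimap genes, 4 were therefore detected in WT cells and 1 of those 4, Gimap6, in IRF8KO-labelled cells. Gimap1 and Gimap9 were together in 145 cells against 132 expected (1.10, 0.93 to 1.29), and Gimap6 and Gimap9 in 99 against 108 (0.92, 0.75 to 1.12).

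Ligands of LAG-3 and other checkpoint genes went both ways. Of 17 listed, 9 passed 10 CPM, and 4 were lower and 5 higher in IRF8KO-labelled cells, their median log2 ratio being 1.23. Of all genes tested 74.9% were lower, and 52.6% under TMM scaling, where the list kept 4 lower and 5 higher. Vsir, which encodes the checkpoint protein VISTA, stood at 1606 and 1038 CPM, the collagen receptor Lair1 at 951 and 484, and Havcr2, which encodes TIM-3, at 288 and 186. Cd244, a receptor of the SLAM family, had 78 WT UMIs and 2901 in IRF8KO-labelled cells. The MHC class II genes H2-Aa, H2-Ab1 and H2-Eb1, whose products LAG-3 binds, had 22, 142 and 24 WT UMIs and 662, 495 and 507 in IRF8KO-labelled cells, and are named for that role. Tigit had 0 UMIs in both.

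Of 16 lymphoid transcription factors, 7 had 0 UMIs in both libraries, among them Pax5, Tcf7 and Lef1, along with Ikzf3, Gata3, Pou2af1 and Spib. Of the 7 that passed 10 CPM, 5 were lower and 2 higher in IRF8KO-labelled cells, and the median log2 ratio was -0.92. Of all genes tested 74.9% were lower, with a median of -0.28. Under TMM scaling 52.6% were lower, and the list kept 5 lower and 2 higher. Ets1, a factor of T and B cell development, had 2351 WT UMIs and 105 in IRF8KO-labelled cells, 22.9-fold lower. Spi1, which encodes PU.1, stood at 451 and 315 CPM, and Ikzf1 at 316 and 167 CPM. Runx3, a factor of cytotoxic T cells, had 0 WT UMIs and 1402 in IRF8KO-labelled cells. Ets1 and the members were found together in WT at 0.99 to 1.08 times the depth-expected number of cells, and these pairs were chosen after the values were seen.

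**Figure D5:**
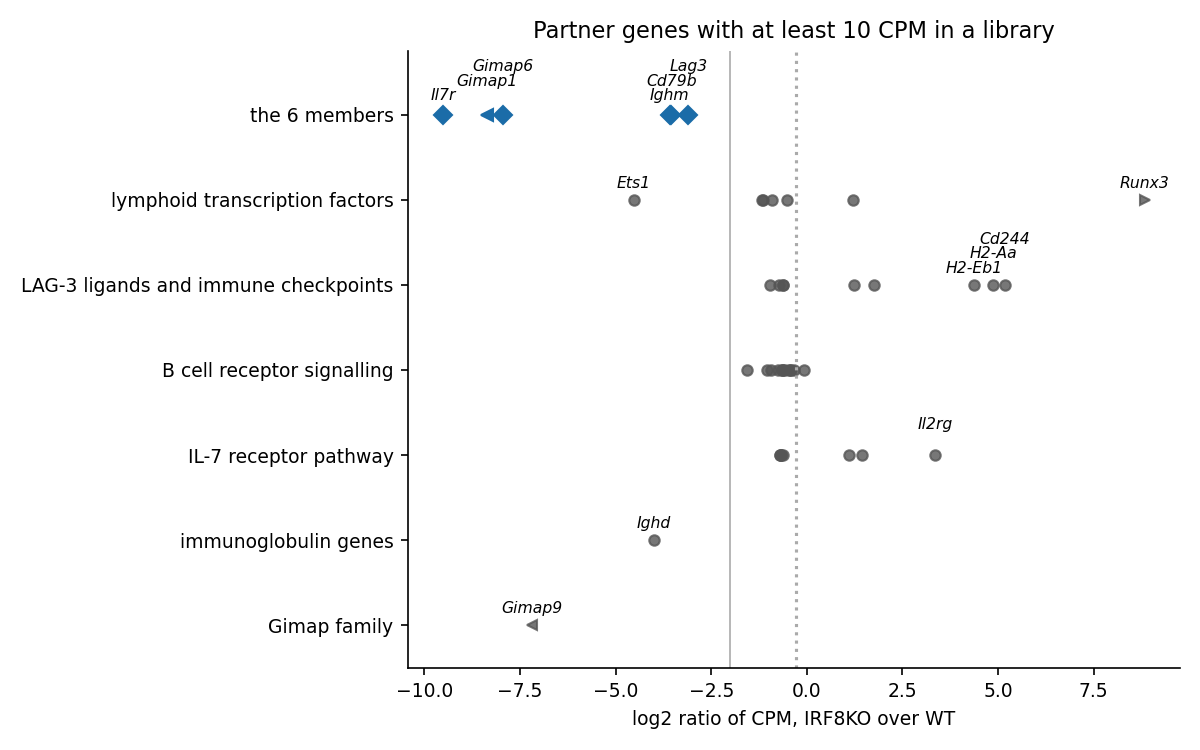
log2 ratio of CPM, IRF8KO over WT, for the 6 members (blue) and for the genes of 6 lists that reached 10 CPM in either library (grey), with names where the ratio is at least 4-fold; arrowheads mark bounds at the floor of 3 UMIs. The dotted line is the median of all genes, -0.28, and the solid line 4-fold lower; beside the members, Ets1, Ighd and Gimap9 lie left of the solid line, and the B cell receptor signalling genes do not reach it.

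The few remaining transcripts in the library labelled IRF8KO were looked at by cell. Of its 5007 cells, 31 had a Sall1 UMI, and both Il7r UMIs lay in these 31 cells. Lag3 was in 7 of the 31, against 2.59 expected from depth (2.70, 1.09 to 5.56), an interval above 1. It stood at 43.6 CPM (17.5 to 89.9) in them and at 19.7 CPM (17.7 to 21.8) in the other 4976 cells, with overlapping intervals. None of the 3 Gimap6 UMIs lay in cells with Sall1. Ighm and Lag3 were found together in 47 IRF8KO-labelled cells against 31.4 expected (1.496, 1.10 to 1.99), while Cd79b and Lag3 were together in 3 against 6.92. These pairs were singled out after their values were seen, and the counts are small.

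RefSeq promoter sequences of GRCm38.p6 were matched by symbol for 3 of the 6 members: Il7r, Gimap1 and Gimap6, those nearest to 0 in the library labelled IRF8KO. They are shown because IRF8 and PU.1 bind joint elements in which an ETS core (GGAA) stands beside an IRF core (GAAA). Searched on both strands of 250 bases before and 50 after the start were GAGGAA, a core bound by PU.1, and the joint form GGAANNGAA. GAAANNGAA, a repeat of the IRF core with no ETS core, was searched too. The joint form GAAANNGGA was added after the sequences were seen and holds only GGA of the ETS core. Capitals mark a match, positions count from 1 at the start with -1 the base before it, and each run reads 5′ to 3′ on the strand of the gene.
Il7r (chr15:9529877-9530126, minus strand): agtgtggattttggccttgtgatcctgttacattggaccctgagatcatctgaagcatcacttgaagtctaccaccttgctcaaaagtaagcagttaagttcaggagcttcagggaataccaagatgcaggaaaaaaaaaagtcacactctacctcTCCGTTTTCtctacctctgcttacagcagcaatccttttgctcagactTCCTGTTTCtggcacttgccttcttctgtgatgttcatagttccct
Gimap1 (chr6:48738797-48739046, plus strand): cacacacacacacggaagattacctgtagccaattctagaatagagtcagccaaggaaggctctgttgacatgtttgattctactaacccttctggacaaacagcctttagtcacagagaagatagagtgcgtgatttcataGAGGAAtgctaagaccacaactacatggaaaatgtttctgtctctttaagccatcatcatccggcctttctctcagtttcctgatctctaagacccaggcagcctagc
Gimap6 (chr6:48708220-48708249, minus strand): tctgctcattTCCTGTTTCtcattgcacag

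Il7r held GAAANNGGA on the opposite strand at -94 and at -46, and Gimap6 held it on the opposite strand at 6, just past the start. These positions count from the RefSeq start. The Il7r run lies inside the GENCODE span of the gene given above, so its matches are upstream of the RefSeq start only. The matches at -46 and at 6 run on into the whole core GGAA, and the match at -94 does not. Gimap1 held GAGGAA at -108 and, on the opposite strand, at 4. GGAANNGAA and GAAANNGAA were in none of the 3. Over 32851 RefSeq promoters of the same length, GAGGAA was in 28.3%, GGAANNGAA in 8.24%, GAAANNGAA in 8.56%, and GAAANNGGA in 7.11%; the last ran on into the whole core in 2.80%. A match is a description of letters; binding was not measured in these files.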

How the data were processed

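The 6 genes and all gene lists were chosen with earlier results of these data known. Per the submitters' processing notes, reads were handled with bcl2fastq, Cell Ranger 3.1 and Scanpy on mm10, and per the file headers the software version was 3.1.0 and the format version 2. The sources used here do not give annotation, counting settings or cell calling. The deposited values are whole-number UMI counts per gene and barcode, not normalized; no barcode had fewer than 500 UMIs (WT) or 501 (IRF8KO), so the authors' files hold selected barcodes. In all, 3504 barcodes with 18706147 UMIs and 5303 barcodes with 19998075 UMIs were read.

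From these counts, cells were filtered as stated (200 WT and 198 IRF8KO barcodes left out), and counts were summed and scaled to CPM. A log2 ratio is IRF8KO over WT; a count of 0 was set to a floor of 3 UMIs over the group. Depth-expected numbers of cells with both genes are sums over 20 classes of equal cell number by total UMIs. Thinning drew UMIs without replacement, with a random stream for each cell. A change to that scheme after the values were seen moved small thinned counts. Averages over all draws are therefore given for Ighm and for the small shares of Il7r, Cd79b and Gimap6 in IRF8KO-labelled cells. Other thinned values are from 1 draw. Scrublet in scanpy 1.11.5 called 0 WT and 3 IRF8KO doublets, too few for a working call, and all cells were kept. Intervals are exact Poisson, exact binomial (Clopper-Pearson) and exact conditional binomial ones at 95%. For cells with both genes the Poisson interval leaves out that the number of cells with each gene is given, so it is too wide. No p-value was computed with 1 library per group. The steps were tested on simulated data. Named genes are the 6 members, Irf8, Sall1 and P2ry12, up to 4 genes of each list with the highest CPM in either library, list genes with 0 UMIs in both libraries (1 is not reported here), and the 3 genes most found with each member; others are said to be named after their values were seen or for a stated role. Positions are from GENCODE M21 (31011 of 31053 features matched; 36 symbols are repeated, none of them a member). Python 3.11.15, numpy 2.4.6, scipy 1.17.1, pandas 2.3.3, and edgeR 4.0.16 in R 4.3.3 for TMM scaling were used.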

Additional observations from a re-analysis of the deposited data

Results flagged for a closer look

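The values here come from barcodes outside the main comparison and were picked because members exceeded there the level that 3 UMIs would give. The 200 WT barcodes left out by the cell filter held Il7r at 67.4 CPM, Ighm at 92 CPM, Cd79b at 73.6 CPM, Gimap1 at 49.1 CPM and Lag3 at 239 CPM, from 8 to 39 UMIs each. The 198 barcodes left out of the library labelled IRF8KO held Cd79b at 22.9 CPM, from 4 UMIs (6.23 to 58.6 CPM). The 98 neutrophil-gene cells held Ighm at 33.2 CPM and Cd79b at 7.12 CPM.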

How the results depend on the processing

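No log2 ratio of a member changed direction under the alternatives tried. Scaling by TMM gave log2 ratios of -3.34 for Ighm and -2.84 for Lag3, and a pseudocount of 1 CPM gave -6.14 for Il7r, -5.72 for Gimap1 and -5.10 for Gimap6; the pseudocount pulls ratios of counts near 0 toward 0 by its construction. The other 49 alternative ratios stayed within the counting intervals, among them those with the neutrophil-gene cells included, with a stricter cell filter, without the 87 WT and 208 IRF8KO cells of highest doublet score and, added after the data were seen, without cells of 10000 UMIs or more. With no minimum level 6 of 6 members were at least 4-fold lower (5.23% of genes), and with a minimum of 50 CPM 4 of 4 tested (2.51%). Shares of WT cells with a UMI follow depth. In the order Il7r, Ighm, Cd79b, Gimap1, Gimap6 and Lag3 they were 26.5%, 57.2%, 20.1%, 20.6%, 16.7% and 43.1% without thinning, 7.57%, 21.3%, 4.36%, 4.72%, 3.93% and 15.1% at 1000 UMIs, and 25.1%, 61.5%, 17.1%, 18.2%, 13.9% and 46.4% at 4000 UMIs. At least 2 UMIs in thinned cells gave 1.69%, 9.41%, 0.464%, 0.464%, 0.464% and 5.50%. The 15 pairs together gave 1.05 times the expected cells when thinned and 1.07 with at least 2 UMIs of a member, against 1.02 as reported; the cause was not tested. Single pairs moved more when thinned, Gimap1 with Gimap6 from 1.13 to 0.91 and Il7r with Cd79b from 1.08 to 1.397. No paired analysis was possible because each group is 1 library. The depth limits the members with 0 to 3 IRF8KO UMIs, whose ratios are bounds or span several log2 units.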
